A study of Mus musculus with 6 samples.

Results

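The cytochrome P450 genes of the Cyp1, Cyp2 and Cyp3 families were examined in liver of fed and fasted mice. Members were all genes whose annotated symbol begins with Cyp1, Cyp2 or Cyp3 followed by a letter and that had a probe set naming no other gene. Of 18193 genes measured on the arrays, 43 met this rule, and each was read from its brightest such probe set over the 6 arrays. They fall into 14 subfamilies, of which Cyp2c has 11 measured genes, Cyp2d 8, Cyp2j and Cyp3a 5 each, Cyp2b 4 and Cyp1a 2, and Cyp1b, Cyp2a, Cyp2e, Cyp2f, Cyp2g, Cyp2r, Cyp2s and Cyp2u have 1 each. A further 2 probe sets that name several genes of these families were not used.

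The enzymes encoded by these genes are haem proteins of the endoplasmic reticulum that insert an oxygen atom into their substrate, using electrons passed on by reductases and cytochrome b5. In hepatocytes they make drugs, toxins, steroids, retinoids, bile acids and fatty acids more water-soluble or reactive. Their genes answer to receptors for foreign compounds, chiefly CAR (Nr1i3), PXR (Nr1i2) and the aryl hydrocarbon receptor (Ahr), and several mouse genes of the family also follow the sex-specific rhythm of growth hormone.

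All mice were 8-week-old C57BL/6J males, and the arrays form 3 groups of 2 that the labels call biological replicates. Wild-type mice fed normal chow are the first group, wild-type mice without food for 24 h the second, and Cnot3+/- mice without food for 24 h the third; no group combines Cnot3+/- with feeding. The CCR4-NOT complex, to which the Cnot3 protein belongs, removes poly(A) tails from mRNA. Per the labels the fasted mice were housed singly, so food withdrawal and housing cannot be told apart, and the labels do not describe the Cnot3 allele. Levels are log2 values made by the authors with RMA, and the array medians lay between 5.59 and 5.64.

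Where a group mean did not exceed the array medians, the gene is called not above background, which held for 10 of the 43 genes in every group: Cyp2b13, Cyp2b19, Cyp2c65, Cyp2d12, Cyp2d34, Cyp2j11, Cyp2j13, Cyp2s1, Cyp3a16 and Cyp3a44. At the other end, 10 genes had a mean above 13, while the highest value on any array was 15.43. Of these bright genes 1 changed on fasting, Cyp2c29, and 8.41% of the 321 bright genes of the whole array did. Because that mean includes the fasted arrays, a gene bright in fed liver can leave the set by falling. Cyp2c70, Cyp1a2 and Cyp2c23 had fed means of 13.84, 13.82 and 13.31, fell on fasting and are outside it. Cyp2c54, Cyp2j5, Cyp2c68 and Cyp2c37 also had fed means above 13, are outside it and did not pass. Compression near the top of the scale was not tested. Hepatocyte marker genes were high on all arrays, with a summed level (log2 of the sum of linear levels over 9 genes) from 17.62 to 17.80. Cnot3 itself read 9.27 and 9.32 in fasted wild-type and 9.40 and 9.16 on the fasted Cnot3+/- arrays, so its mRNA does not check the genotype label.

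Fasting lowered 8 of the 43 P450 genes and raised 1 in wild-type liver. Cyp2c70, Cyp2c55, Cyp2c29, Cyp2c23, Cyp1a2, Cyp2r1, Cyp2j6 and Cyp2u1 fell and Cyp2c39 rose, while no Cyp2d, Cyp3a, Cyp2a, Cyp2e or Cyp2f gene passed the test. With a variance trend in the fit Cyp2d9 was called higher (log2 0.38, adjusted p = 0.0333). A gene is said to change at a Benjamini-Hochberg adjusted p under 0.05 over all genes in limma. The 9 changes make 20.9% of the members, beside 5.02% of all 18193 genes (1.87% higher and 3.15% lower). Among genes above background in a group, 27.3% of the members and 7.58% of all genes were called. Of 30 measured P450 genes of other families 5 were called (16.7%), and fed and fasted arrays did not overlap for 18 (60%). The median log2 difference was -0.17 over the 43 genes and 0.02 over all genes, and the fed and fasted arrays did not overlap for 27 of 43 members (62.8%), beside 50.8% of all genes. The liver was measured as a whole, so less RNA per cell and fewer cells of a type cannot be told apart.

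**Figure D1:**
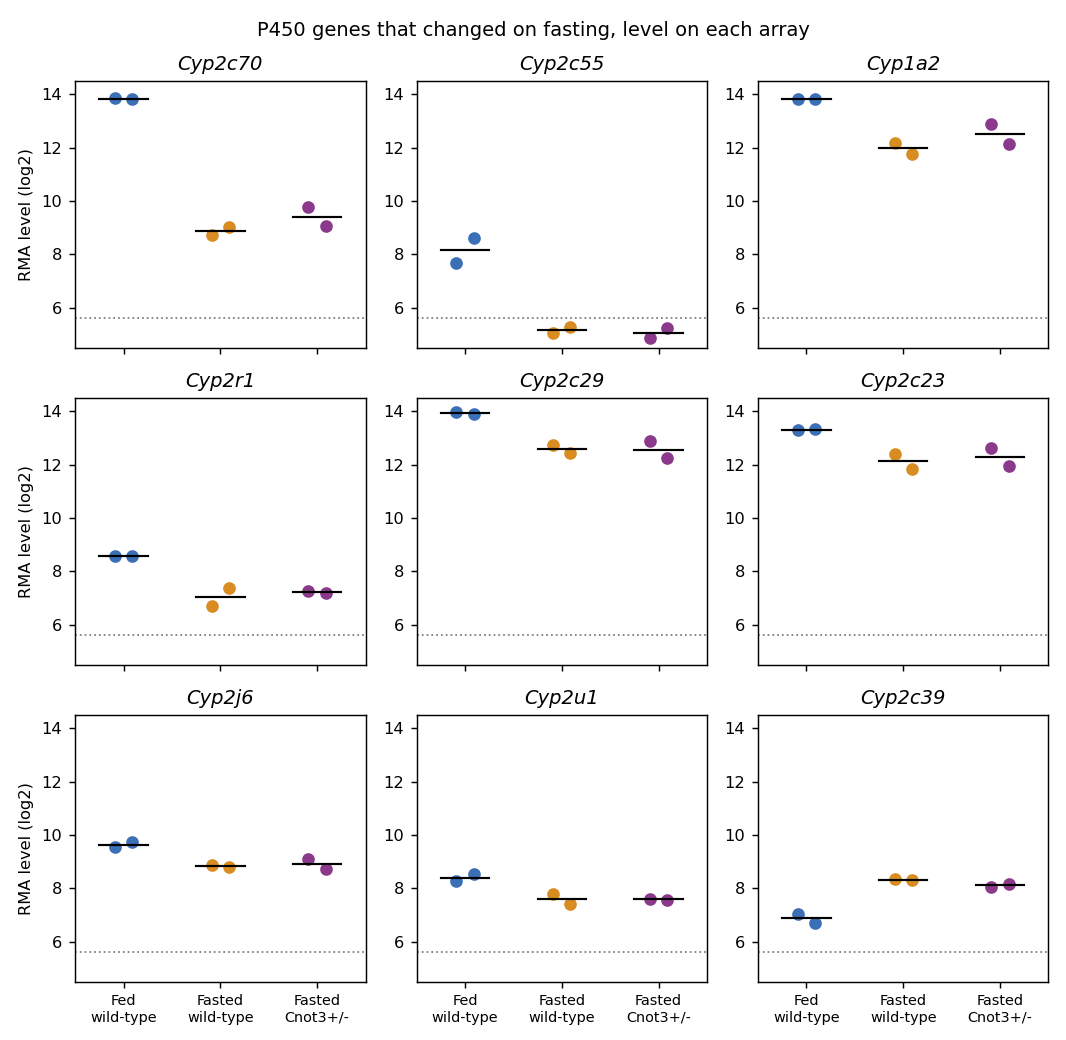
RMA level (log2) of the 9 P450 genes that changed on fasting, on each of the 2 arrays of a group (points) with the group mean (black line); the dotted line is the mean of the array medians. Cyp2c70 stood at 13.82 or above when fed and between 8.74 and 9.76 on the 4 fasted arrays, and Cyp2c39 is the gene whose fasted arrays lie above the fed ones.

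The Cyp2c subfamily held 5 of the 9 changes, 4 downward and 1 upward among 11 genes, with a median log2 difference of -0.81. The change was steepest at Cyp2c70, the mouse enzyme that hydroxylates bile acids to form muricholic acids. Cyp2c70 read 13.87 and 13.82 when fed, dropped to 8.74 and 9.03 in wild-type mice without food, and stood at 9.76 and 9.06 in Cnot3+/- mice without food. All 4 fasted arrays lay far below both fed ones. The fall was 31.1-fold in wild-type liver (log2 -4.96, SE 0.23, adjusted p = 0.000253), to 3.22% of the fed level.

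Cyp2c55, which is inducible through CAR and PXR, read 7.67 and 8.62 in fed liver and then dropped to 5.05 and 5.27 in fasted wild-type liver and 4.87 and 5.22 in fasted Cnot3+/- liver. The fasted levels lay under the array medians, so the gene fell by at least 5.76-fold (a bound of -2.53 on the log2 scale). The bound itself was not tested. The limma test was on the values as read (log2 -2.98, adjusted p = 0.00386). Cyp2c29, an abundant enzyme that makes epoxides of arachidonic acid and also metabolises drugs, read 13.96 and 13.88 in fed liver, 12.72 and 12.46 in fasted wild-type liver, and 12.88 and 12.26 in fasted Cnot3+/- liver. Its fall was 2.52-fold (log2 -1.33, SE 0.21, adjusted p = 0.0177), with no overlap between fed and fasted arrays.

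Cyp2c23, also known as Cyp2c44 and another arachidonic acid epoxygenase, read 13.30 and 13.32 in fed liver against 12.41 and 11.85 after fasting in wild-type mice and 12.64 and 11.97 in Cnot3+/- mice. The first array of each fasted pair was the higher one. The fall was 2.27-fold (log2 -1.18, SE 0.25, adjusted p = 0.0462), close to the threshold, and its only probe set is of a kind that may also read related transcripts. The call was lost after cyclic loess normalisation and without any 1 wild-type array (adjusted p up to 0.23).

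Cyp2c39, which breaks down retinoic acid in mouse liver, was the member that rose. Its levels were 7.05 and 6.69 in fed liver, 8.34 and 8.33 in fasted wild-type liver, and 8.07 and 8.15 in fasted Cnot3+/- liver. The rise was 2.75-fold (log2 1.46, SE 0.15, adjusted p = 0.00407), and each of the 4 fasted arrays lay above both fed ones.

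The other 6 Cyp2c genes did not pass. Cyp2c54 differed by -1.02 (log2, adjusted p = 0.0714), Cyp2c50 by -0.81 (0.0933) and Cyp2c68 by -0.51 (0.168), each with fed arrays above fasted ones. Cyp2c37 and Cyp2c38 differed by -0.17 and 0.24, and Cyp2c65 was not above background. Cyp2c37, Cyp2c50 and Cyp2c54 encode closely related arachidonic acid oxidising enzymes. Probe sequences were not used here, so how far related transcripts share a probe set was not tested.

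In the RefSeq annotation of assembly GRCm38.p6 all 11 measured Cyp2c genes lie on chromosome 19, where 19 entries of these families are listed in all. The gene that rose sits next to one that fell: Cyp2c39 directly follows Cyp2c29. Cyp2c38, the next measured gene in order, did not pass, and Cyp2c70 and Cyp2c23 are the last of the series. Those last genes, which both fell, are thus neighbours in this order, while Cyp2c55 and Cyp2c29 lie apart from them. Directly before Cyp2c70 come Cyp2c54 and Cyp2c50, which differed by -1.02 and -0.81 (log2) and did not pass. None of the 8 measured Cyp2d genes on chromosome 15 and none of the 5 Cyp3a genes on chromosome 5 passed.

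**Figure D2:**
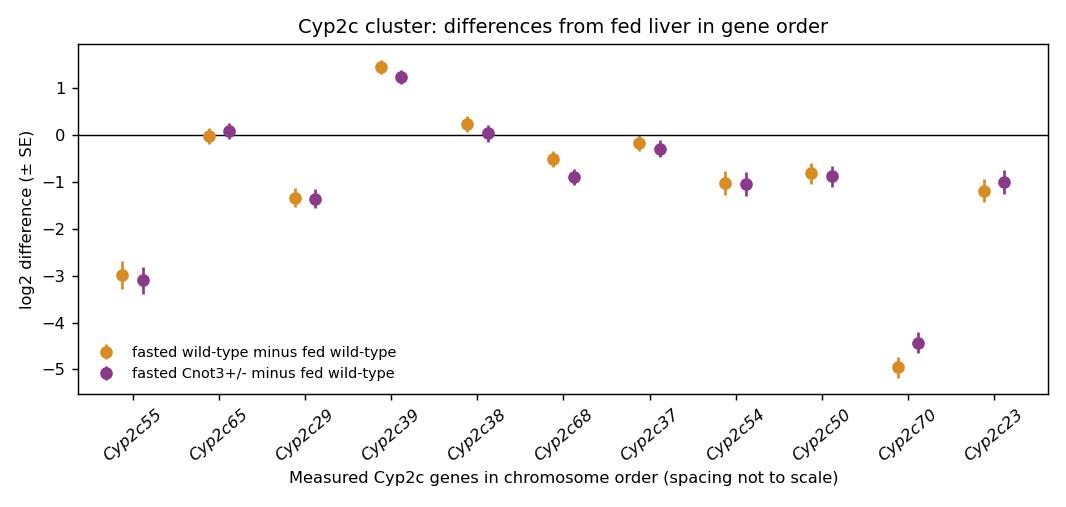
Log2 difference from fed wild-type liver (± moderated SE) for the 11 measured Cyp2c genes in their order on the chromosome, in fasted wild-type liver and in fasted Cnot3+/- liver; both series share the 2 fed arrays. Cyp2c29 at -1.33 and its neighbour Cyp2c39 at 1.46 lie on opposite sides of 0 after fasting.

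Promoters were read for 5 genes to show where neighbours with opposite changes, a further pair of lowered genes and a gene that did not pass resemble each other. Each is the 250 bases before the RefSeq start on GRCm38.p6, printed along the gene's own strand. They are Cyp2c70 (chr19:40187287-40187536, minus strand), Cyp2c29 (chr19:39286835-39287084, plus), Cyp2c39 (chr19:39347096-39347345, plus, the outermost of its 2 listed starts), Cyp1a2 (chr9:57683656-57683905, minus) and Cyp3a11 (chr5:145879855-145880104, minus). Capitals mark matches to the 8 motifs listed after them, on either strand.
Cyp2c70: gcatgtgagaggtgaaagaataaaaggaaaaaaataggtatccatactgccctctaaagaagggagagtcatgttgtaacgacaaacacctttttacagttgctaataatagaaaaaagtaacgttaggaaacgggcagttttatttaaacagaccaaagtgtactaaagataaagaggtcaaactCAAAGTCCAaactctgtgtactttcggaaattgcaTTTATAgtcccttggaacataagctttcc
Cyp2c29: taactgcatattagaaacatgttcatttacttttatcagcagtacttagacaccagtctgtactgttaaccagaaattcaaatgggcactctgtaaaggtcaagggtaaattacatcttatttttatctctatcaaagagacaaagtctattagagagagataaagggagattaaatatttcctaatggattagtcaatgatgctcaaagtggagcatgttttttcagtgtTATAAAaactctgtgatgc
Cyp2c39: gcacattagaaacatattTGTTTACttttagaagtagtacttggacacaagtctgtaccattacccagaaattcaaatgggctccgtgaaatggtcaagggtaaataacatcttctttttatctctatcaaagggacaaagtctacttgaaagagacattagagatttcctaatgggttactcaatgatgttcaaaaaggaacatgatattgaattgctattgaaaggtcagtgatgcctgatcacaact
Cyp1a2: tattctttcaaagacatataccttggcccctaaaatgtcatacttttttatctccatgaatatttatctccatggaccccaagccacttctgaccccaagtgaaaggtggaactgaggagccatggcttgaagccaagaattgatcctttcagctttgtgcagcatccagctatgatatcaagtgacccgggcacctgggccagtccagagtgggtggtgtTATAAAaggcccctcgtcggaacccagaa
Cyp3a11: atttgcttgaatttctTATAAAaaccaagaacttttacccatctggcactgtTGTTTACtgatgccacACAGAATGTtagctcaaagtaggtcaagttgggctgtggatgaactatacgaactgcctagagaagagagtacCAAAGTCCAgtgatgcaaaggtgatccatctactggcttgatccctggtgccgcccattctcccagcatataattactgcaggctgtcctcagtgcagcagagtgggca

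All motifs were searched on both strands. The TATA box was searched as TATAAA, which in many promoters positions the transcription start. The letters CAAAGTCCA stand for a site of HNF4, an activator of hepatocyte genes. For C/EBP factors the search used TTGCNNAA, and for STAT factors TTCNNNGAA. FoxO factors, which are active when insulin is low, were given by TGTTTAC. The core of the aryl hydrocarbon receptor site was given by GCGTG. The last searches used TTATGTAA for the circadian PAR bZIP factors and ACANNNTGT for the glucocorticoid receptor. No printed matches overlap. Positions count back from the base before the RefSeq start, which is -1. In Cyp2c70 a TATA match on the opposite strand begins at -29 and an HNF4 match at -64. Cyp1a2 holds a TATA match at -29 and Cyp2c29 at -19. Cyp2c39 holds no TATA match in this window and a FoxO match at -232. In Cyp3a11, which did not pass, an HNF4 match lies at -109, a glucocorticoid receptor match at -182, a FoxO match at -198 and a TATA match at -234.

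A promoter entry was found for 35 of the 43 genes. The TATA box was in 17 of the 35 (12.4% of 32851 promoters of this length) and in 4 of the 6 genes with an entry that fell. The HNF4 letters were in 5 (Cyp2c65, Cyp2c68, Cyp2c70, Cyp3a11 and Cyp3a16), beside 0.384% of all promoters, and these are related genes, not independent cases. The FoxO letters were in 6 (3.17% of all), the CEBP letters in 7 (9.56%), the aryl hydrocarbon receptor core in 6 (28.2%), the glucocorticoid receptor letters in 5 (5.84%) and the STAT letters in 1 (7.02%). The PAR bZIP letters were in 0 of 35 (0.819% of all). Of 2 further motifs searched, an HNF1 site and a spaced repeat bound by CAR and PXR, each was in 0 of 35 (0.0609% and 0.0152% of all). The windows of the neighbours Cyp2c29 and Cyp2c39 had the same base at 195 of 237 gap-free aligned positions (82.3%), beside 69.0% and 75.4% for each of them with Cyp2c70; gapped alignment raises these shares for any pair.

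In the Cyp1 family Cyp1a2, the hepatic enzyme of caffeine and aromatic amines and a target of the aryl hydrocarbon receptor, was the gene that fell. Cyp1a2 read 13.83 and 13.82 in fed liver, 12.19 and 11.77 in fasted wild-type liver, and 12.90 and 12.15 in fasted Cnot3+/- liver. The fall in wild-type liver was 3.59-fold (log2 -1.84, SE 0.25, adjusted p = 0.0106). Cyp1a1, the other liver target of that receptor, lay just above the array medians when fed (5.64 and 5.93) and under them when fasted (5.34 and 4.86), and did not pass (adjusted p = 0.105). Cyp1b1, an enzyme best known outside the liver, was below the medians in both wild-type groups and differed by 0.11 (adjusted p = 0.727). The mRNA of the receptor Ahr read 10.21 and 9.41 when fed and 9.21 and 9.26 when fasted in wild-type liver, a difference that did not pass (log2 -0.58, adjusted p = 0.443).

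Among enzymes with body-own substrates, Cyp2r1, which hydroxylates vitamin D in the liver, read 8.58 and 8.57 in fed liver and 6.71 and 7.40 in fasted wild-type liver. It fell 2.87-fold (log2 -1.52, SE 0.21, adjusted p = 0.0114), and read 7.26 and 7.18 in fasted Cnot3+/- liver. Cyp2u1, a hydroxylase of long-chain fatty acids, went from 8.28 and 8.54 to 7.78 and 7.43, and read 7.61 and 7.57 on the Cnot3+/- arrays. That is a 1.74-fold fall (log2 -0.80, SE 0.16, adjusted p = 0.0357). Cyp2j6, of a subfamily that oxidises arachidonic and linoleic acid, went from 9.54 and 9.74 to 8.87 and 8.78, with 9.11 and 8.71 on the Cnot3+/- arrays. It fell 1.76-fold (log2 -0.81, SE 0.16, adjusted p = 0.036).

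Cyp2j5, a liver and kidney epoxygenase, had lower fasted than fed arrays (13.20 and 13.11 against 12.81 and 12.60) and did not pass (log2 -0.45, adjusted p = 0.14). The second probe set of Cyp2j6 differed by less, -0.46 on the log2 scale, and that of Cyp2u1 was not above background in any group. All 7 members with more than 1 single-gene probe set had the same sign on each of them. The other 36 have 1 probe set each.

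Among the Cyp2b genes, Cyp2b10 (the classic phenobarbital-inducible CAR target) and Cyp2b9 showed wide spread between the fed arrays. Cyp2b13 and Cyp2b19 were not above background. Cyp2b10 read 8.32 and 9.26 in fed liver, 8.96 and 9.58 in fasted wild-type liver, and 9.69 and 10.02 in fasted Cnot3+/- liver. Fed and fasted wild-type arrays overlapped (log2 0.48, SE 0.33, adjusted p = 0.507). The female-biased Cyp2b9 read 6.94 and 5.34 when fed and 4.33 and 4.47 when fasted in wild-type liver. It did not pass (adjusted p = 0.0724), and its fasted level was not above background. The second fed array also lay under the array medians, so the level above background rests on the first. CAR itself, Nr1i3, rose on fasting from 10.58 on both fed arrays to 11.41 and 11.47 (log2 0.86, SE 0.12, adjusted p = 0.0125), while PXR, Nr1i2, differed by 0.10 (adjusted p = 0.773).

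Several of the brightest drug-metabolising genes stayed within narrow limits. Cyp2e1, which oxidises ethanol and acetone, read 14.69 and 14.62 in fed and 14.80 and 14.72 in fasted wild-type liver, with a 95% interval of the difference from -0.17 to 0.38. Cyp3a11, the main PXR-responsive Cyp3a gene of mouse liver, read 14.63 and 14.57 against 14.56 and 14.42 (interval -0.40 to 0.17). The interval lay within 2-fold either way for 15 of the 33 genes above background in a group, beside 10108 of 11867 such genes of the array, and these included Cyp2a12, Cyp2f2, Cyp2d10, Cyp2d22, Cyp2d26 and Cyp3a25. Cyp3a13 differed by 0.55 (adjusted p = 0.178) and the male-specific Cyp2d9 by 0.38 (adjusted p = 0.136), both with every fasted array above the fed ones. Cyp2g1, best known from nasal tissue, read 6.65 and 5.61 when fed and was not above background when fasted (adjusted p = 0.076).

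**Figure D3:**
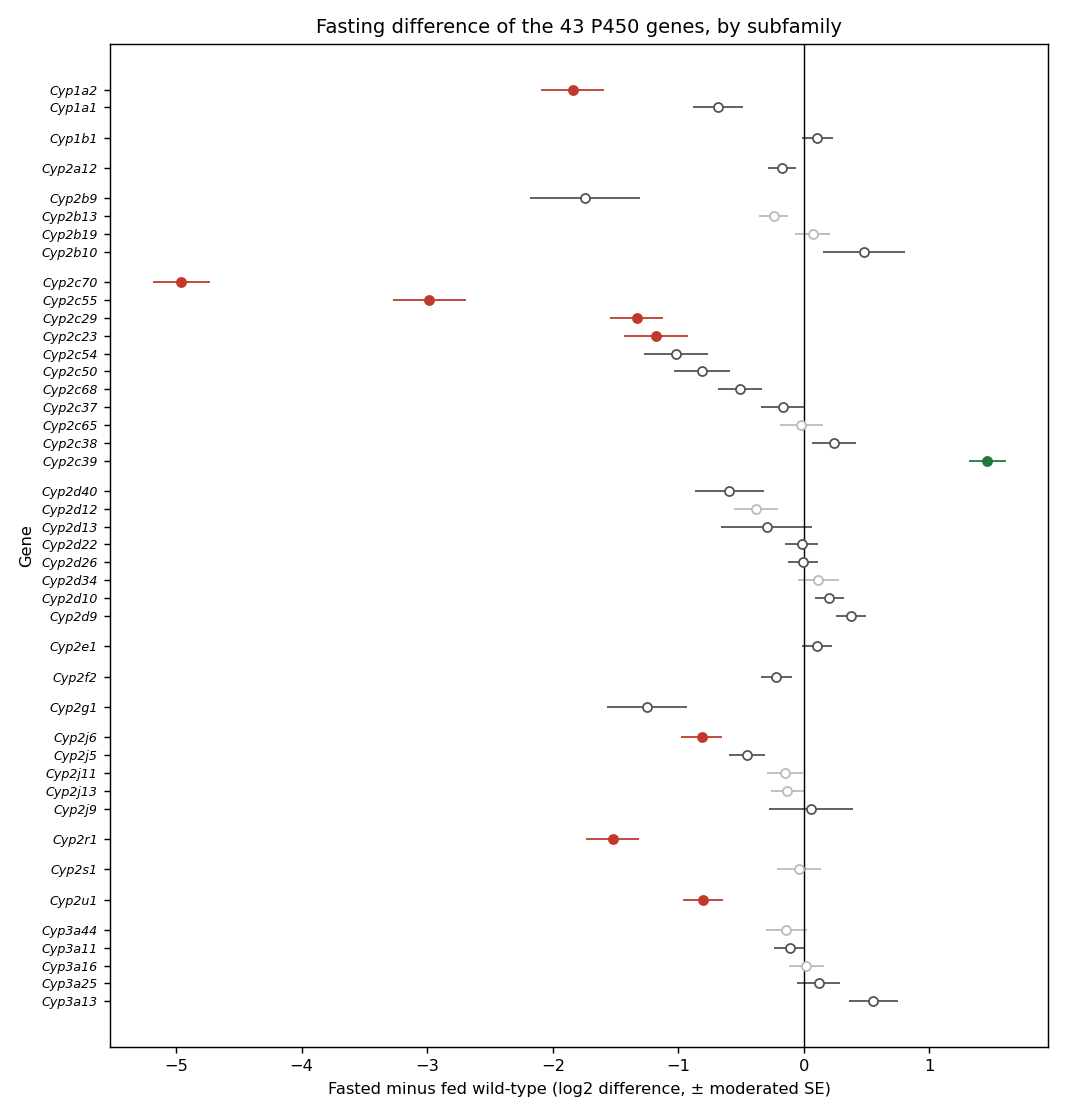
Log2 difference of fasted minus fed wild-type liver (± moderated SE) for the 43 P450 genes, grouped by subfamily. Filled red points fell, the filled green point rose, open points did not pass, and pale points mark the 10 genes not above background in any group; Cyp2c spans from -4.96 to 1.46, Cyp2d from -0.59 to 0.38.

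Of the 9 calls, those of Cyp2c70, Cyp2c55 and Cyp2c39 held whichever array was left out, with adjusted p up to 0.00847, 0.0435 and 0.0437. Cyp2r1 was lost without fed replicate 1 (0.053) and without fed replicate 2 (0.0644), with its log2 difference at -1.52 in each case. Cyp1a2, Cyp2c29, Cyp2c23, Cyp2j6 and Cyp2u1 were lost without any 1 of the 4 wild-type arrays, with adjusted p up to 0.0766, 0.117, 0.23, 0.192 and 0.194. Their log2 differences then lay between -2.05 and -1.64 for Cyp1a2, -1.47 and -1.20 for Cyp2c29, -1.46 and -0.90 for Cyp2c23, -0.91 and -0.72 for Cyp2j6, and -0.98 and -0.63 for Cyp2u1. Between 4 and 5 members were called on those sets of arrays, and 0.753% to 2.52% of all genes.

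Marker genes of other cells differed on fasting as well. Of 10 stellate cell and fibroblast genes 3 fell and 1 rose (40%, beside 5.02% of all genes). Col3a1 fell by 2.32 (log2, SE 0.34, adjusted p = 0.0125), and Lrat fell too (-1.20, SE 0.13, adjusted p = 0.00497). Col1a1 was called lower but was not above background, and Dcn rose by 0.61 (SE 0.14, adjusted p = 0.0497). The summed level of that list was 12.81 and 12.69 when fed and 13.01 and 12.88 when fasted. Lyve1 of the endothelial list (1.58, adjusted p = 0.00456) and Lgals4 of the intestine list (1.60, adjusted p = 0.0122) rose, and Cela1 of the exocrine pancreas list fell (-1.45, adjusted p = 0.00308). No other gene of those lists passed, and Vil1, Muc2, Cdx2 and Cdx1 of intestine and Cpa1 and Cela2a of pancreas were not above background in any group. All 12 Kupffer cell and macrophage genes had positive differences, and none passed. Their summed level was 12.83 and 13.08 when fed and 13.27 and 13.36 in fasted wild-type mice. No marker of that list was under the array medians in every group. The summed hepatocyte level was 17.70 and 17.62 when fed and 17.80 and 17.71 when fasted. The excess of the 3' over the 5' control probe set (log2), a sign of RNA quality, was lower on both fasted wild-type arrays than on both fed ones for 3 of 4 control transcripts. For actin it was 0.582 and 0.435 against 0.605 and 0.625, and for pyruvate carboxylase 2.67 and 1.87 against 3.29 and 3.25. The part of these shifts in the P450 differences was not tested.

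Genes of haem handling and electron transfer changed in part, and the reductase gene Por was not analysed here. Of 16 measured haem synthesis, haem breakdown and electron transfer genes 3 fell and 1 rose on fasting. That is 25%, beside 7.58% of all genes above background in a group. Cyb5b, the cytochrome b5 of the outer mitochondrial membrane, fell by 1.48 (log2, SE 0.12, adjusted p = 0.00254). Cyb5r3, the reductase of cytochrome b5, fell by 1.17 (SE 0.15, adjusted p = 0.0076), and Alad, the second enzyme of haem synthesis, by 0.87 (SE 0.12, adjusted p = 0.012). Hmox1, which degrades haem, rose by 0.63 (SE 0.12, adjusted p = 0.0304). Cyb5a, the microsomal cytochrome b5, differed by -0.09 (adjusted p = 0.758). Alas1, which sets the rate of haem synthesis, differed by -0.32 (adjusted p = 0.326).

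Of 27 measured receptors and regulators of P450 genes 3 rose and 2 fell (18.5%, beside 7.58% of all genes above background in a group). Besides Nr1i3, the corepressor Nr0b2 rose by 1.07 (log2, SE 0.16, adjusted p = 0.0134) and Gadd45b, a coactivator of CAR, by 1.95 (SE 0.40, adjusted p = 0.0397). The liver factor Foxa2 fell by 0.89 (SE 0.18, adjusted p = 0.037) and the glucocorticoid receptor Nr3c1 by 0.63 (SE 0.13, adjusted p = 0.0391). Hnf4a, a general activator of hepatocyte genes, differed by 0.07 (adjusted p = 0.866).

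Other enzymes of oxidation, hydrolysis and conjugation had 4 falls and 2 rises among 41 genes (14.6%), and a median of -0.26. Of all genes above background in a group 7.58% were called. Aox3, an aldehyde oxidase, fell by 1.47 (log2, SE 0.27, adjusted p = 0.0273) and Papss2, which makes the sulfate donor, by 1.01 (SE 0.16, adjusted p = 0.02). Aldh1a7 and Gstt1 fell by 0.91 and 0.74. The flavin monooxygenase Fmo2 rose by 1.79 (SE 0.21, adjusted p = 0.00625). The epoxide hydrolase Ephx2, which opens the epoxides that Cyp2c and Cyp2j enzymes make, rose by 0.67 (SE 0.13, adjusted p = 0.0329).

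In fasted liver no P450 gene differed between Cnot3+/- and wild-type past the test. limma called 0 of the 43 genes, as it called 0% of all 18193 genes; 0 members and 1011 of all genes had an unadjusted p under 0.05. The arrays of the genotypes did not overlap for 12 of 43 members (27.9%), beside 36% of all genes. For 29 of the 33 genes above background in a group the 95% interval of the difference lay within 2-fold either way, beside 11286 of 11867 such genes of the array. The 4 with a wider interval were Cyp2b9 (-1.47 to 0.59, not above background in either genotype), Cyp2b10 (-0.18 to 1.36), Cyp1a2 (-0.04 to 1.14) and Cyp2c70 (-0.01 to 1.06).

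The 8 members with the smallest genotype p are given as values that did not pass, with adjusted p from 0.863 to 0.868. Cyp2b10 differed by 0.59 (log2), Cyp1a2 by 0.55, Cyp2c70 by 0.53, Cyp1b1 by 0.29 and Cyp2d34 by 0.28. With single arrays left out the difference ran from 0.28 to 0.90 for Cyp2b10 and from 0.18 to 0.93 for Cyp1a2. That of Cyp2d34, not above background, ran from 0.09 to 0.47, and that of Cyp1b1 from 0.19 to 0.39. Cyp2c68 differed by -0.38, Cyp2c39 by -0.22 and Cyp2a12 by -0.20. Cyp1b1 was above the array medians on the Cnot3+/- arrays (5.76 and 5.72 against 5.35 and 5.55), which leaves a bound of 0.12, and as the mean over its probe sets it differed by 0.09.

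**Figure D4:**
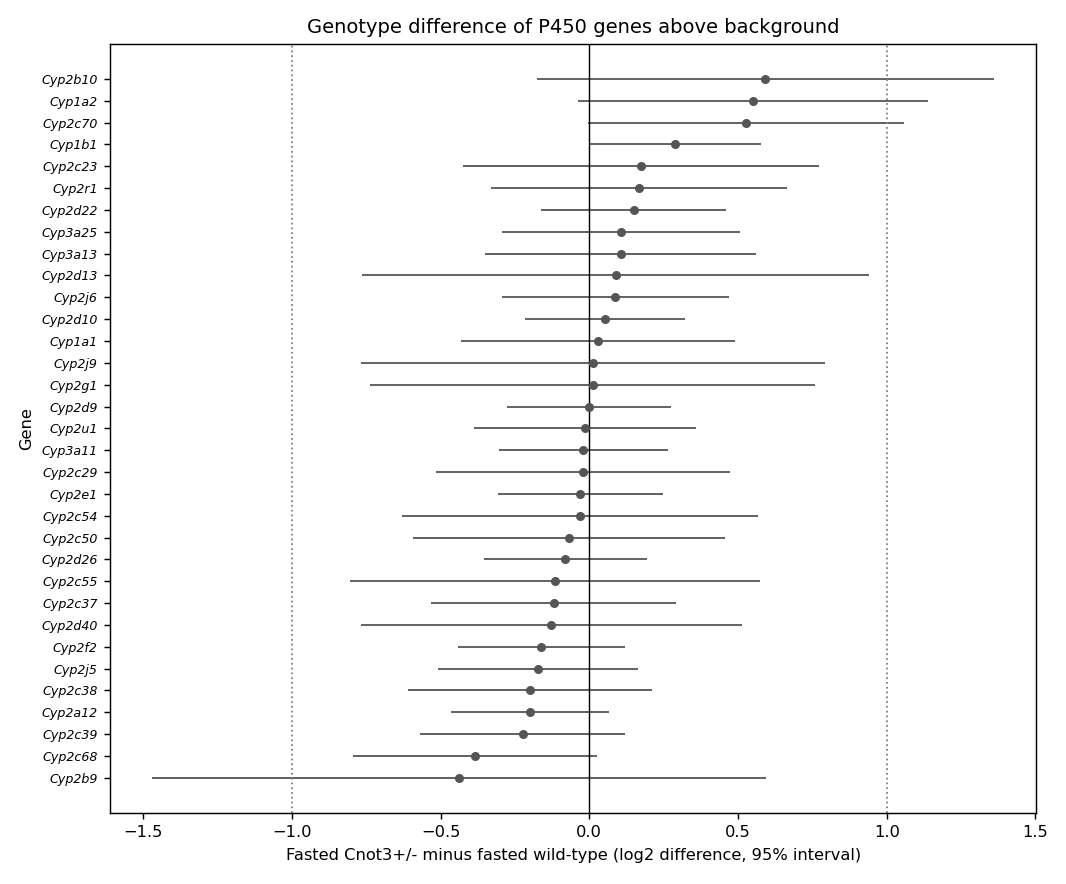
Log2 difference of fasted Cnot3+/- minus fasted wild-type liver with its 95% interval for the 33 P450 genes above background in at least 1 group; dotted lines mark 2-fold. No gene passed the test; the uppermost is Cyp2b10 at 0.59, and Cyp2b9 at the bottom was above background in the fed group only, so its difference is between background levels.

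The first Cnot3+/- array stood apart from the second at many P450 genes. Of the 33 genes above background in a group, 26 were higher on it, with a median gap of 0.26 (log2), while 46.1% of the 11867 genes of the array above background were higher there (median -0.03). In fasted wild-type liver 25 of 33 were higher on replicate 1 (median 0.11), beside 42.2% of all genes above background. In fed liver 22 were (median 0.05), beside 43.5%. More members were thus higher on replicate 1 in every group, with the widest median gap in the Cnot3+/- pair. Cyp2d13, listed as a transcribed pseudogene, had the widest Cnot3+/- gap, 10.42 against 9.26. Cyp1a2 at 12.90 and Cyp2c70 at 9.76 on the first Cnot3+/- array were the highest fasted values of each gene.

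The same array had the largest excess of the 3' over the 5' control probe set for 3 of 4 control transcripts, such as 1.06 (log2) for actin against 0.435 to 0.625 on the other 5 arrays. It also had the highest summed Kupffer cell and macrophage level, 14.06 against 13.53 on the second Cnot3+/- array and 13.27 and 13.36 in fasted wild-type liver. Ahr read 10.32 on it and 9.36 on the second. The part of these shifts in the P450 values was not tested. Without that array Cyp2c70 differed between genotypes by 0.18, and without the second by 0.87.

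**Figure D5:**
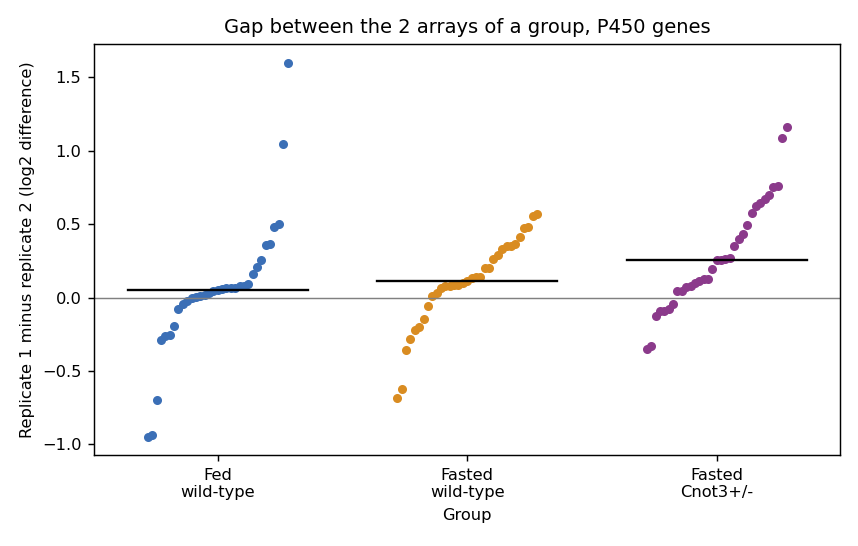
Replicate 1 minus replicate 2 (log2 difference) within each group for the 33 P450 genes above background in at least 1 group, sorted by size, with the median as a black line. The median gap is 0.05 for the fed pair, 0.11 for the fasted wild-type pair and 0.26 for the Cnot3+/- pair.

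Fasted Cnot3+/- against fed wild-type liver differs in feeding and genotype together and shares the fed arrays with the fasting comparison. Of the 43 genes 10 were lower and 1 higher (25.6%), beside 7.56% of all genes (3.68% lower and 3.88% higher). The arrays did not overlap for 32 members (74.4%), beside 48% of all genes. Of the 12 Kupffer cell and macrophage genes 6 were higher here, with a median log2 difference of 0.80 and no overlap for any of the 12, and of 10 stellate cell and fibroblast genes 3 were lower and 2 higher. Their part in the P450 differences was not tested. Cyp2c70 fell by 4.43 (log2, SE 0.23, adjusted p = 0.000394), beside 4.96 in fasted wild-type liver. Cyp2c39 rose by 1.24 (SE 0.15, adjusted p = 0.00503), beside 1.46. Cyp1a2 fell by 1.29 (SE 0.25, adjusted p = 0.026), beside 1.84, and Cyp2c29 by 1.35 beside 1.33. Cyp2r1, Cyp2u1 and Cyp2j6 fell by 1.36, 0.82 and 0.73, and Cyp2c55 had a bound of -2.54.

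Cyp2c23 differed by -1.01 and did not pass (adjusted p = 0.0605). Called here and not between the wild-type groups were Cyp2c68 (13.37 and 12.88 fed, 12.17 and 12.30 fasted Cnot3+/-, adjusted p = 0.0264), Cyp2j5 (log2 -0.62, adjusted p = 0.045) and Cyp2b9. Cyp2b9 read 4.06 and 3.86 on the Cnot3+/- arrays, under the medians, so its difference has a bound of -0.53, which was not tested. The limma test of Cyp2b9 was on the values as read (log2 -2.18, adjusted p = 0.028). Whether fasting acted differently on these 3 genes in the 2 genotypes cannot be told, since no fed Cnot3+/- mice were measured. Their differences between the fasted genotypes did not pass. Cyp2j5 was lost without any 1 of the 6 arrays, Cyp2c68 without any but fed replicate 2, and Cyp2b9 without any but a fed one. With any 1 of the 6 arrays left out between 4 and 10 members were called, and Cyp2c70, Cyp2c55 and Cyp2c39 were called each time.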

How the data were processed

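Liver RNA of 6 mice was measured on Affymetrix mouse arrays. Per the submitters' processing notes the authors used RMA, with no version given, and the deposited values are log2 levels, which were used as deposited. Probe sets (45101, 64 of them controls) were named from the platform annotation; 34945 name a single gene. Symbols were matched to RefSeq (GRCm38.p6) by gene ID for 18032 of 18193 genes and all 43 members. Promoters are RefSeq's.

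limma 3.58.1 on R 4.3.3 fitted 3 group means to all 6 arrays (residual df 3, prior df 4.24), with Benjamini-Hochberg adjustment over 18193 genes. SE and 95% intervals are moderated. With 2 arrays per group the number of arrays limits the precision. For a bound, each array of a dim group takes the higher of its median and its own value. The fit was tested on simulated data. Members and lists were chosen with earlier results of these data known.

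Named genes are all called members, the smallest fasting p of each subfamily without a call, the 8 smallest genotype p, up to 4 called genes of each pathway list, and Cnot3, Nr1i2, Nr1i3, Ahr and Alas1 whatever their values; Por, named there too, was not analysed here. Other members, Cyb5a, Hnf4a, Gadd45b, Aox3, Ephx2, Trim24 and the markers were named after their values were seen. Alternatives were probe set choice, filters, normalisation, variance model, arrays in the fit and a replicate block. Same-numbered arrays were not taken as pairs. Figures used matplotlib 3.10.9 on Python 3.11.15.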

Additional observations from a re-analysis of the deposited data

How the results depend on the processing

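Of the 43 P450 genes 9 were called for fasting, and 6 to 12 under the alternatives that kept all arrays: 6 with the mean over probe sets, 8 without probe sets shared between transcripts, among genes above the median level or after cyclic loess, 9 after centring on brighter genes, 11 with a variance trend (Cyp2c54 and Cyp2d9 gained) or only the compared groups (Cyp2c50 and Cyp2c54 gained), and 12 with the replicate block (these and Cyp2g1 gained). With single arrays left out the count ran from 4 to 11. Cyp2c55 was not tested among genes above the median level. Cyp2c23, whose probe set is shared, was not tested without such probe sets. It was lost after cyclic loess and with the mean over probe sets, as were Cyp2j6 and Cyp2u1 with that mean. For genotype the count was 0 in all 14 alternatives. For fasted Cnot3+/- against fed liver 11 were called, 18 with a trend, 7 with only those groups, 16 with the replicate block and 4 to 10 with single arrays left out. Why the counts differ between settings was not tested. The fits on only the compared groups or with single arrays left out also hold fewer arrays. Cyp2s1, not above background, differed on fasting by -0.04 (log2), by 0.0322 without fed replicate 1 and by 0.0052 without fasted wild-type replicate 1, with a range of -0.11 to 0.03 when single arrays were left out. The numbers do not pair the mice by any label; gaps between same-numbered arrays correlated across genes at 0.454 for the fasted groups and at 0.045 and -0.009 with the fed group. Levels near the array medians limit what dim genes can show.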

Other observations

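Genes listed as markers of the ends of the liver lobule, other than P450s, were also measured. Aldh1b1 was entered in both the pericentral and the periportal list, so the lists as drawn up are not fully separate. Of 15 pericentral genes 3 fell on fasting and none rose in limma's test (20%, beside 7.58% of all genes above background in a group). The median log2 difference was -0.37, beside 0.02 over all genes. The 3 that fell were Lect2 (-1.69, SE 0.21, adjusted p = 0.00711), Rgn (-1.29, SE 0.29, adjusted p = 0.0498) and Gulo (-0.89, SE 0.17, adjusted p = 0.0334). In fasted Cnot3+/- against fed liver 3 of the 15 pericentral genes were called higher and 2 lower, with a median of -0.25. That is 33.3%, beside 11.4% of all genes above background in a group. Of 14 periportal genes 3 rose and 1 fell on fasting in wild-type liver (28.6%, beside the same 7.58%), with a median of 0.20. Etnppl rose by 1.08, Asl by 0.70 and Hsd17b13 by 0.70, and Cdh1 fell by 1.01. Among 7 measured pericentral P450 genes 2 fell (28.6%), Cyp1a2 and Cyp2c29, with a median of -0.81. This share is near the 27.3% called among all 33 members above background in a group, whose median was -0.30. Fewer cells of a zone and lower levels per cell cannot be told apart.

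Of 12 genes of the growth hormone axis and its sex-biased targets 3 fell and 2 rose (41.7%, beside 7.58% of all genes above background in a group). Ghr, the growth hormone receptor, fell by 0.96 (log2, SE 0.16, adjusted p = 0.021) and the STAT5 target Cish by 1.69 (SE 0.27, adjusted p = 0.0185). Hsd3b5 fell by at least 6.34. Bcl6, a repressor that growth hormone lowers, rose by 1.89 (SE 0.32, adjusted p = 0.021), and Trim24 by 0.94 (SE 0.19, adjusted p = 0.0371). Of the 4 measured male-biased P450 genes only Cyp2u1 passed, and it fell. For these 4 genes 1 difference was positive and 3 were negative, with a median of -0.41. Of 8 female-biased ones, 5 of them above background in a group, only Cyp2c39 passed, and it rose. The differences of these 8 were positive for 4 and negative for 4, with a median of -0.06. Fed and fasted arrays did not overlap for 4 of 4 male-biased genes (100%) and 4 of 8 female-biased ones (50%), beside 50.8% of all genes. Each list thus held differences of both signs, and the lists were not tested against each other.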
